A study of Mus musculus with 4 samples.

Results

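The genes of oxidative phosphorylation were followed through the immune cells of the mouse cortex. Members were all gene symbols of the count table that begin with mt-Nd, mt-Co, mt-Cyb, mt-Atp, Nduf, Uqcr, Cox4 to Cox8, Atp5 or Sdh. By this spelling 106 genes matched, and the table's mt-Cytb was added as the cytochrome b gene that the prefix mt-Cyb stands for. The 107 members, of 16798 genes in the table, comprised 13 genes of the mitochondrial genome and 94 nuclear genes. By symbol, 43 were assigned to complex I, 4 to complex II, 9 to complex III, 21 to complex IV and 18 to complex V, without a check that each is a subunit. A further 8 were assembly factors of complex I and 4 were assembly factors of complex II, counted apart. Ndufa4 and Ndufa4l2 were placed in complex IV, to which the Ndufa4 protein is now assigned.

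The cells were CD45+ immune cells sorted from cortices of 18-month-old mice, profiled with 10x Genomics 3′ single-cell RNA sequencing. One genotype was APP/PS1, a transgenic line that deposits amyloid and is called AD here. The other was APP/PS1 Axl-/- Mertk-/-, called ADAM, which carries the same amyloid transgenes and lacks the receptor tyrosine kinases Axl and Mertk. Each genotype had 2 libraries (AD 1 and AD 2, ADAM 1 and ADAM 2), each from 2 pooled cortices. All 4 libraries thus came from amyloid-bearing mice, and the series has no amyloid-free group. The deletions are not described in the labels as limited to a cell type.

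The respiratory chain passes electrons from NADH (complex I) and succinate (complex II) through complex III to oxygen at complex IV. The proton gradient built on the way drives ATP synthesis at complex V. Complexes I, III, IV and V mix a small core of subunits made inside the mitochondrion from its own genome with many subunits encoded in the nucleus, whereas complex II is wholly nuclear. Macrophage-lineage cells and lymphocytes are known to shift between oxidative metabolism and glycolysis as they become activated.

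The table held 15451 cells, and 24 cell barcodes occurred in more than 1 library. Raw molecule counts (unique molecular identifiers, UMIs) were added up within each library for every cell class and every numbered microglia state in the authors' annotation. Levels without further scaling are given as UPM, UMIs per 1000000 UMIs of the set. Libraries were the replicates. For the genotypes, p-values weigh a difference against how far libraries of the same genotype lie apart. Contrasts of classes and states had library as a term, so their p-values reflect how evenly a difference recurred within libraries. A sum over cells cannot tell a gene used by fewer cells from one used less per cell. The microglia compared were the 9077 that carry a state number, and 9 sets with at least 20 cells in every library that do not overlap were compared: states 0, 2, 3, 4 and 5, macrophages, monocytes, proliferating cells and T and NK cells. The summed level of 6 microglial markers was 10770 to 13892 UPM in microglia and 275 to 434 in T and NK cells, and 6 T and NK markers stood at 5826 to 6507 UPM in T and NK cells and 9.7 to 23.2 in microglia. No source used here states how the authors drew the classes and states, and a gene that helped to draw them had to differ between them.

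The 13 mitochondrial members took a larger share of the transcriptome than the 94 nuclear ones in most sets. In microglia they made up 3.21%, 2.79%, 3.41% and 3.28% of UMIs in AD 1, AD 2, ADAM 1 and ADAM 2. The nuclear members made up 1.67%, 1.51%, 1.62% and 1.62% in the same order. The ratio of mitochondrial to nuclear UMIs was 1.98 ± 0.112 (SD, n = 4 libraries). AD 2 was the lowest library for the mitochondrial share in 7 of the 9 sets and ADAM 2 in the other 2. The highest library was AD 1 in 3 sets, ADAM 1 in 4 and ADAM 2 in 2.

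The share of the nuclear members separated the cell sets more cleanly than that of the mitochondrial members. It was 0.937% ± 0.274 in state 2, 1.37% ± 0.0401 in state 0, 1.81% ± 0.135 in macrophages, 1.83% ± 0.0219 in state 4, 1.87% ± 0.0476 in state 5, 2.02% ± 0.0661 in T and NK cells, 2.27% ± 0.0563 in state 3, 2.30% ± 0.195 in monocytes and 2.55% ± 0.236 in proliferating cells (mean ± SD, n = 4 libraries each). The library ranges did not overlap at 4 steps of this order, between state 2 and state 0, state 0 and macrophages, state 5 and T and NK cells, and T and NK cells and state 3. At the other steps neighbouring sets overlapped.

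The mitochondrial share was 3.097% ± 0.322 in state 0, 3.11% ± 0.249 in state 5, 3.199% ± 0.215 in T and NK cells and 3.22% ± 0.352 in macrophages. Every neighbouring pair of sets in its order overlapped. Among the sets compared, the extremes were state 3 with 4.76% ± 0.499 and monocytes with 2.31% ± 0.304. Their ranges of 4.01 to 5.05% and 2.04 to 2.74% were apart. Taking mitochondrial over nuclear UMIs, state 2 lay highest with 3.32 to 7.49 and monocytes had the lowest mean, with 0.876 to 1.19, which overlapped proliferating cells at 0.763 to 1.31. Other sets were outside the tests because a library held fewer than 20 cells. Among them, neutrophils had 1.02 to 1.29% nuclear and 1.22 to 2.84% mitochondrial UMIs, and B cells 1.6 to 2.0% and 3.56 to 4.96%. Oligodendrocytes, with 3 to 8 cells per library, had means over cells of 4.52 to 6.61% mitochondrial UMIs. State 1, state 6 and endothelial cells were outside as well. The highest mitochondrial share of any deposited cell was 9.99%, and no source used here states the filters on cells, so cells with more mitochondrial RNA are not part of these shares.

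**Figure D1:**
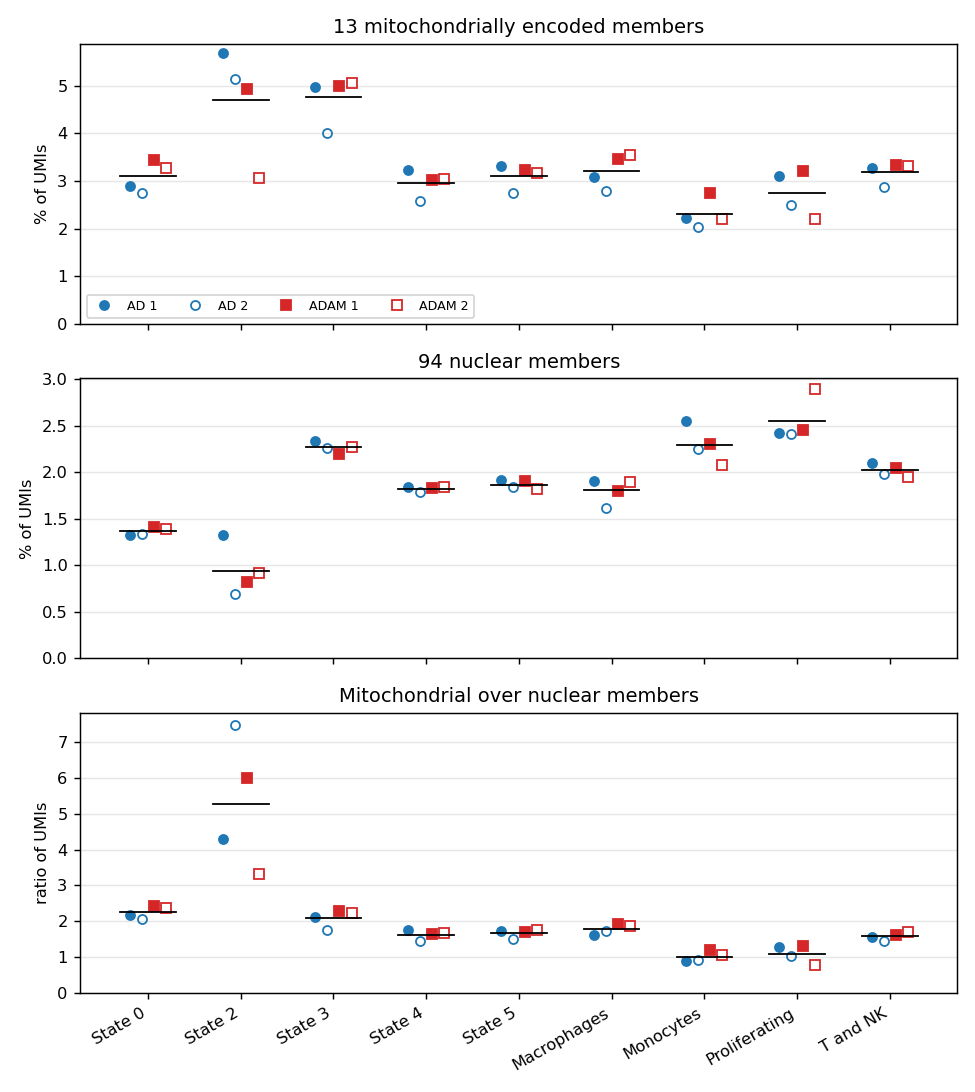
Share of UMIs on the 13 mitochondrial members (top, %), on the 94 nuclear members (middle, %) and their ratio (bottom), by cell set; each point is 1 library (circles AD, squares ADAM, filled replicate 1, open replicate 2) and the line is the mean of the 4 libraries. The nuclear share rises from 1.37% in state 0 to 1.87% in state 5 while the mitochondrial share is 3.097% and 3.11%, and state 2 has the highest ratio and the widest spread.

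State 5 was the second largest microglia state tested, after state 0, and the 2 were compared within libraries by edgeR's quasi-likelihood test with library as a term. Of 103 members tested, 86 were higher in state 5 and 2 were lower at an adjusted p under 0.05 (Benjamini-Hochberg over all genes). Over all 10687 genes, 58.4% were called in either direction, 3131 higher and 3110 lower, with a median log2 fold of -0.03. The median log2 fold of the nuclear members was 0.64, with 77 of 90 higher, and that of the mitochondrial members 0.33, with 9 of 13 higher. The median gene depended on the scaling, which was TMM here. When libraries were scaled by total counts only, the median of all genes was -0.35, the mitochondrial median was 0.00 and the nuclear median 0.31. Then 61 members were higher and 12 lower, with 3 mitochondrial members in each direction. Under this scaling 73 of 103 members and 7714 of all 10687 genes were called, which are similar shares. Measured from the median gene, the mitochondrial members stood at 0.36 and 0.35 and the nuclear members at 0.66 and 0.67 under the 2 scalings. A change of scaling moves all folds of a contrast by about the same amount, so these distances were bound to be alike. Values below are CPM, the same scale after TMM scaling, in the order AD 1, AD 2, ADAM 1, ADAM 2.

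By complex, the nuclear members of complex IV had the largest median log2 fold, 0.94, with 13 of 14 called higher. Complex III followed with 0.72 (7 of 8), complex I with 0.66 (35 of 36), complex V with 0.64 (15 of 16) and complex II with 0.29 (4 of 4). Of the 8 assembly factors of complex I, 3 were higher and 2, Ndufaf4 and Ndufaf7, were lower, and none of the 4 of complex II was called. With total counts only, the medians were 0.61 for nuclear complex IV (12 of 14 higher), 0.39 for complex III (7 of 8), 0.33 for complex I (25 of 36) and 0.31 for complex V (12 of 16). Complex II then had a median of -0.04, with 0 of 4 higher and 1 lower, so its direction depended on the scaling. As a share of UMIs, nuclear complex IV rose from 0.393% ± 0.0191 in state 0 to 0.614% ± 0.0200 in state 5, and nuclear complex V from 0.359% ± 0.0102 to 0.454% ± 0.0109 (SD, n = 4 libraries), with no overlap of libraries. The shares of complex II were 0.0332% ± 0.00119 and 0.0319% ± 0.00111, which overlapped.

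The largest change was in Cox6a2, the isoform of the complex IV subunit 6A that is characteristic of heart and skeletal muscle. It stood at 39.997, 30.4, 47.9 and 57.5 CPM in state 0 and at 453, 323, 550 and 320 CPM in state 5. Every state 5 library lay above every state 0 library (log2 fold 3.23, SE 0.231, adjusted p = 0.000558). Its ubiquitous counterpart Cox6a1 went from 169, 168, 198 and 181 CPM to 451, 346, 388 and 342 CPM, a log2 fold of 1.08. Both isoforms of the subunit thus rose, with no overlap of libraries for either.

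The change in Cox6a2 was also seen in the share of cells with at least 1 UMI after cells were thinned to 2000 UMIs. Cells below that depth were left out of the thinned shares but not of those before thinning. These shares were 6.98%, 5.21%, 8.44% and 12.1% in state 0 and 40.5%, 37.1%, 52.1% and 37.3% in state 5, while before thinning they were 13.6 to 24.5% and 66.0 to 75.3%. In T and NK cells the thinned shares were 0.232 to 1.98%, and the source of these UMIs was not tested. Median depths before thinning were 4145 to 5905 UMIs per cell in state 0, 6201 to 7883 in state 5 and 2926 to 3548 in T and NK cells. The Cox6a2 gene (chr7:128205435-128206387, minus strand, GENCODE vM21 on GRCm38) lies within the span of Itgad on the other strand, and no source used here states whether the counting used strand. Itgad itself had 0.00 to 0.703 UPM in state 0 and 0.00 to 0.214 in state 5.

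Ndufa1, a small membrane-arm subunit of complex I encoded on the X chromosome, had the next largest fold. It stood at 112, 89.5, 122 and 112 CPM in state 0 and at 501, 328, 413 and 344 CPM in state 5 (log2 fold 1.85, SE 0.0758, adjusted p = 6.11e-15). The groups were apart, and AD 1 was highest in state 5. Cox8a, the ubiquitous subunit 8 of complex IV, followed with 462, 503, 558 and 587 CPM against 1149, 1087, 1116 and 1105 CPM (log2 fold 1.08, adjusted p = 4.91e-11).

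Other nuclear subunits moved the same way with smaller folds. Uqcrh, the hinge subunit of complex III, had a log2 fold of 1.01, Cox4i1, the common isoform of complex IV subunit 4, 0.96, and Ndufa2 of complex I 0.95. Atp5g2, which encodes a c subunit of the ATP synthase ring, had 0.81, and its sister genes Atp5g1 and Atp5g3 had 0.61 and 0.49. Sdhb, the iron-sulphur subunit of complex II, had 0.33 and Sdha, its flavoprotein subunit, 0.18, but with total counts only Sdhb had 0.00 (adjusted p = 0.988) and Sdha was lower (-0.15, adjusted p = 0.0495). Atpif1, the inhibitor of the ATP synthase, lies outside the prefixes and rose by 0.66.

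Within the mitochondrial genome the members did not move together. The complex IV and V genes mt-Co1 and mt-Atp6 had log2 folds of 0.51 each. mt-Co1 stood at 3762, 3971, 4769 and 4793 CPM in state 0 and at 6538, 5697, 6343 and 5901 CPM in state 5. mt-Nd1, a complex I gene, stood at 2098, 2084, 2443 and 2555 CPM against 2640, 2107, 2281 and 2481 CPM, which overlapped (log2 fold 0.05, adjusted p = 0.65). mt-Nd2, mt-Nd3 and mt-Nd4 were not called either. With total counts only, mt-Nd1 was called in the other direction (log2 fold -0.28, adjusted p = 0.00027). The tags of mt-Atp8 and mt-Atp6, of mt-Atp6 and mt-Co3, and of mt-Nd4l and mt-Nd4 come from overlapping genes, so their separate counts are uncertain.

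**Figure D2:**
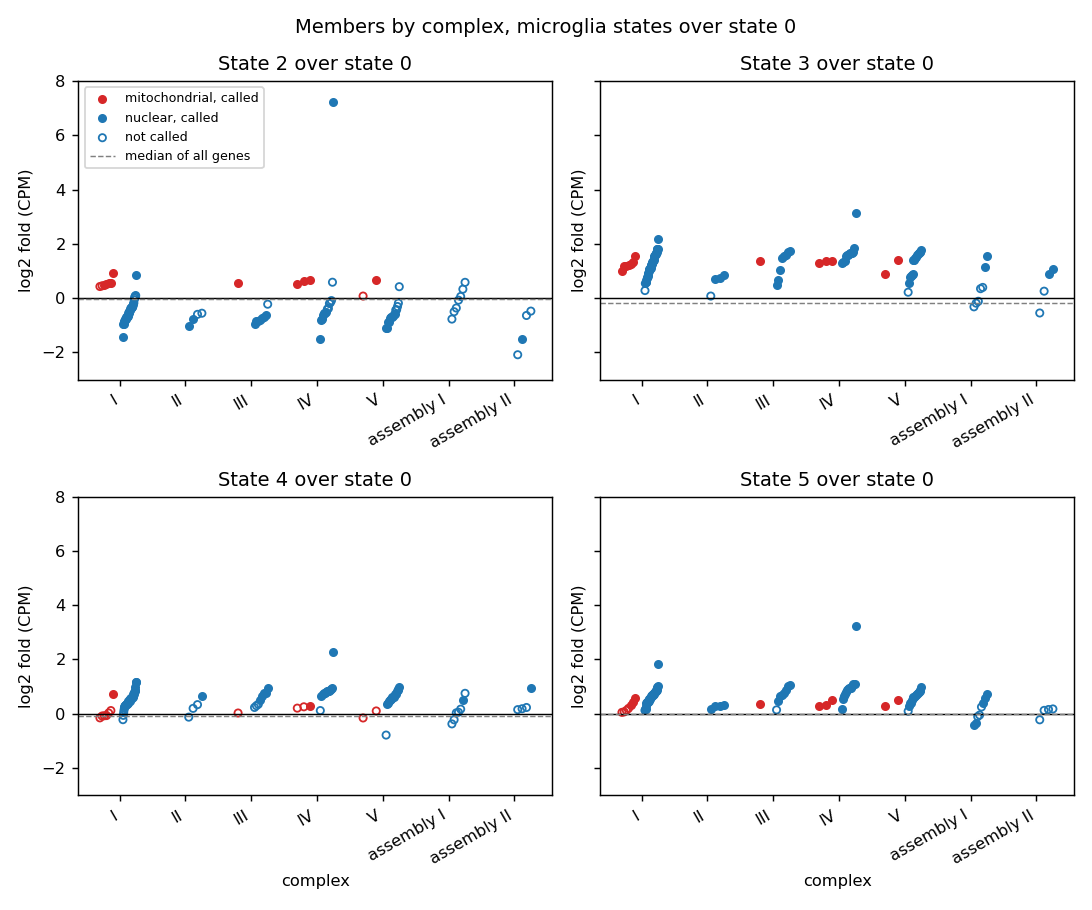
Fitted log2 fold (CPM) of each member tested in states 2, 3, 4 and 5 over state 0, by complex; each point is 1 gene (red mitochondrial, blue nuclear, filled where the adjusted p was under 0.05) and the dashed line is the median of all genes. The highest point in states 3, 4 and 5 is Cox6a2, and in state 2 mitochondrial members lie above 0 while most nuclear members lie below; the lone high point in state 2 is Cox4i2, which rests on 1 to 7 UMIs per library.

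Promoter sequences are shown for the members with a large fold and an entry in the RefSeq promoter table (GRCm38.p6): Ndufa1 and Cox6a1, which were higher in states 3 and 5, and Cox5a, which was higher in the cell classes below. Each run is the 250 bases before the annotated start, 5′ to 3′ on the gene's strand, with Ndufa1 at chrX:37191239-37191488 (minus strand), Cox6a1 at chr5:115348959-115349208 (minus strand) and Cox5a at chr9:57520982-57521231 (plus strand). Capitals mark matches, on either strand, to the ETS motif CCGGAAG, the NRF1 motif CGCATGCG or the CCAAT box, the first 2 known as sites of activators of nuclear respiratory genes, and the PU.1 motif GAGGAAGT and the E-box CACGTG were searched as well. In Ndufa1 and Cox5a none of these letters were in the window.
Ndufa1: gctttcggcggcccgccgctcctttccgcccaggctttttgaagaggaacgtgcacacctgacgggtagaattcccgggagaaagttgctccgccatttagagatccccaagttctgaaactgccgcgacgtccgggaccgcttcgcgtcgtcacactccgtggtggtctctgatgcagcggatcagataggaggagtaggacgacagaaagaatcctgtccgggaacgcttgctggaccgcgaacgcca
Cox6a1: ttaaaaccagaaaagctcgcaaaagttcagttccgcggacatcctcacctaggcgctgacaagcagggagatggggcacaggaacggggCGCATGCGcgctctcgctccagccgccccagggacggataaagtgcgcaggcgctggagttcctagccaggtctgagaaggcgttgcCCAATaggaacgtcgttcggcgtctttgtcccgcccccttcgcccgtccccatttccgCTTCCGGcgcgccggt
Cox5a: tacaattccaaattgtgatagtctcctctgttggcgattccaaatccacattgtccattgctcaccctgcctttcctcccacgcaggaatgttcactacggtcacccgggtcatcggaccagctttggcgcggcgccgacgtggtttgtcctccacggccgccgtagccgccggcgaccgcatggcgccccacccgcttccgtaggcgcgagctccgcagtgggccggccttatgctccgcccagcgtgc
In Cox6a1 the NRF1 motif began at position -161 from the start, the CCAAT box at -74 and the ETS motif, read from the other strand, at -16. Among 81 promoters of 76 members the ETS letters were in 19.8%, against 6.91% of 32851 promoters in the table, and the NRF1 letters in 9.88% against 1.55%. The CCAAT box was in 42.0% and 33.8%, the E-box in 7.41% and 6.02% and the PU.1 letters in 3.70% and 2.44%. The NRF1 letters rest on 8 member promoters, and no set of promoters matched for base composition or expression was compared. These are counts of letters and not of binding.

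State 3, a state with 25.8 to 31.3% of UMIs on ribosomal protein genes against 12.8 to 17.1% in state 0, had the broadest difference. Of 101 members tested, 90 were higher and none was lower, against 38.4% of all genes called. Both medians were 1.31, and the median of all genes was -0.19. Total-count scaling moved that median to -0.92, with 67 members higher, 3 lower and medians of 0.59 and 0.58. All folds move together under such a change, so the distance of members from the median gene could hardly differ. With total counts only, 5609 of all 9146 genes were called. All 13 mitochondrial members were called higher, and mt-Co1 went from 3304, 3475, 4182 and 4203 CPM to 9058, 8977, 10706 and 10326 CPM. Ndufa1 had a log2 fold of 2.17, Cox6a1 1.83 and Cox6a2 3.13. State 3 libraries were scattered for Cox6a2, at 187, 526, 296 and 284 CPM, and its call was lost without AD 1 (adjusted p = 0.0791) or ADAM 1 (0.0774).

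In state 4 the members called were all higher. Of 101 members, 59 were higher and 0 lower, against 27.7% of all genes, with medians of 0.55 for nuclear and 0.03 for mitochondrial members and -0.10 for all genes. With total counts only, the median of all genes was -0.33 and 45 members were higher and 3, all mitochondrial, lower, against 3051 of all 9406 genes called. Cox6a2 stood at 231, 176, 363 and 98.1 CPM in state 4 (log2 fold 2.28, adjusted p = 0.00665, 0.113 without AD 1). Ndufb6 and Ndufa1, both of the complex I membrane arm, had log2 folds of 1.17 and 1.15. State 4 held 23 to 62 cells per library.

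In state 2 the 2 genomes went apart. Of 102 members, 12 were higher, 10 of them mitochondrial, and 44 were lower, all nuclear, against 22.1% of all genes called. The mitochondrial median was 0.55, the nuclear median -0.56 and that of all genes -0.04. mt-Co1 stood at 4374, 4606, 5551 and 5569 CPM in state 0 and 9120, 7933, 7566 and 7105 CPM in state 2, without overlap. Cox7a2l, a factor in assembling supercomplexes, stood at 352, 480, 457 and 508 CPM against 124, 155, 147 and 211 CPM (log2 fold -1.502, adjusted p = 6.31e-11). Ndufv2, in the NADH-binding module of complex I, and Atp5f1, of the ATP synthase stalk, had log2 folds of -1.44 and -1.12.

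Cells of state 2 were shallow, with median depths of 809 to 887 UMIs, and 11.1 to 24.4% of them had a mitochondrial share above 8%, against 0.399 to 0.965% of state 0 cells. Markers of other cells were high in single libraries of state 2. The 3 choroid plexus markers in the table stood at 61492 UPM in AD 1 and 0.00 to 1621 in the others, and 4 haemoglobin genes at 169838 in ADAM 2 and 0.00 in the others. The part of these RNAs in the state 2 difference was not tested. With total counts only, 15 members were higher, 12 of them mitochondrial, and 32 lower, against 2076 of all 9485 genes called. The median of all genes was then 0.05. Of the 56 members called, 10 were called the same way with each library left out in turn, and 15 to 56 members were called in all. Cox4i2, the hypoxia-responsive isoform of subunit 4, had 1, 3, 4 and 7 UMIs in state 2 and 0, 3, 0 and 0 in state 0.

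T and NK cells were compared with microglia in the same way. Of 103 members, 63 were higher and 18 lower, against 76.9% of all genes called, and the medians were 0.36 for nuclear, -0.05 for mitochondrial and -0.03 for all genes. Cox5a, a nuclear subunit of complex IV, had the largest fold of the subunits called higher, with 150, 142, 160 and 151 CPM in microglia and 356, 357, 370 and 324 CPM in T and NK cells (log2 fold 1.22, SE 0.0704, adjusted p = 1.35e-10). The assembly factor Ndufaf5, chosen after its value was seen, had 1.29. Atp5h, of the ATP synthase stalk, had a log2 fold of 0.91 and Cox7b, of complex IV, 0.96. By complex, nuclear complex V had a median of 0.52 with 14 of 16 higher and 1 lower, complex I 0.30 with 25 of 36 higher and 4 lower, and complex IV 0.24 with 7 of 14 higher and 4 lower. Complex II had 0 of 4 higher and 1, Sdhc, lower.

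Cox6a2 was the most strongly lower member in T and NK cells, at 240, 115, 228 and 196 CPM in microglia and 2.45, 4.10, 8.05 and 7.86 CPM in T and NK cells (log2 fold -5.15, adjusted p = 1.78e-08). The groups were far apart, and the 6 microglial markers were also seen in T and NK cells, at 275 to 434 UPM. Other nuclear members lower in T and NK cells included Ndufc2 (-0.60), Ndufa9 (-0.38), Uqcr11 (-0.36) and Cox4i1 (-0.29). Atpif1 was lower by 1.11 on the log2 scale, at 274, 241, 261 and 278 CPM against 114, 124, 113 and 138 CPM.

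The mitochondrial members again did not move together, nor did those of complex I. mt-Co1, mt-Atp6 and mt-Nd5 were higher in T and NK cells (log2 folds 0.36, 0.25 and 0.20), while mt-Nd1, mt-Nd2, mt-Nd3, mt-Nd4, mt-Nd4l and mt-Cytb were lower. mt-Nd1 stood at 2439, 2183, 2486 and 2614 CPM in microglia and 1627, 1377, 1510 and 1817 CPM in T and NK cells, without overlap (log2 fold -0.62, adjusted p = 7.83e-07). The direction and the call of all 81 members called in T and NK cells were the same under total-count scaling.

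In monocytes the contrast between the genomes was larger. Of 103 members, 60 were higher, all nuclear, and 16 lower, 10 of them mitochondrial, against 57.3% of all genes called, with medians of 0.59, -0.78 and -0.18 for nuclear, mitochondrial and all genes. Cox5a stood at 447, 484, 581 and 454 CPM in monocytes against 147, 137, 156 and 148 CPM in microglia (log2 fold 1.74, adjusted p = 2.52e-08). Ndufa11 and Atp5g3 had log2 folds of 1.21 and 1.17. mt-Nd2 stood at 683, 512, 738 and 481 CPM against 1460, 1113, 1471 and 1276 CPM (log2 fold -1.15, adjusted p = 8.42e-07), and mt-Cytb had -1.09, while mt-Co1 was not called (0.17, adjusted p = 0.129). Markers of neutrophils stood at 77.3, 1963, 4166 and 70180 UPM in the monocytes of AD 1, AD 2, ADAM 1 and ADAM 2, and the part of these cells was not tested. Without ADAM 2, 74 members were called, against 76 with all libraries.

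Proliferating cells had 45 members higher, all nuclear, and 10 lower, 8 of them mitochondrial, of 103 tested, against 39.2% of all genes called. The medians were 0.53, -0.56 and -0.12 for nuclear, mitochondrial and all genes. With total counts only they were 0.71, -0.38 and 0.05, with 60 members higher and 7 lower, against 4239 of all 10936 genes called. Cox5a had a log2 fold of 1.77, Atp5g3 1.39 and Ndufa4 1.26, and Cox6a2 and Cox7a2l had -2.74 and -0.88. This class held 38 to 63 cells per library. The T and NK markers summed to 776 to 4362 and the microglial markers to 1121 to 4712 UPM in it, and those of neutrophils to 18475 in ADAM 2 and 0.00 to 168 in the others. Their part in these values was not tested. Of the 55 calls, 28 held with each library left out in turn.

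Macrophages had the fewest members called against microglia of the 4 classes, and also the smallest share of all genes called. Of 103 members, 15 were higher and 4 lower, against 22.9% of all genes called, with medians of 0.15, -0.20 and -0.01 for nuclear, mitochondrial and all genes. With total counts only, 23 were higher and 3 lower, against 2524 of all 10700 genes called. Cox5a was again the highest abundant member, at 325, 228, 254 and 357 CPM against 154, 144, 163 and 153 CPM (log2 fold 0.89, adjusted p = 5.1e-06), and Cox6a2 the lowest, at 35.4, 12.1, 20.7 and 62.7 CPM against 246, 116, 231 and 199 CPM (log2 fold -2.69). Ndufa1 was lower as well (-0.65). The microglia pool several states, among them state 5, where Cox6a2 and Ndufa1 were both higher than in state 0. After thinning, the shares of cells with Ndufa1 overlapped, at 17.8 to 28.4% in macrophages and 18.0 to 23.0% in state 0. The thinned shares of Cox6a2 in macrophages and in proliferating cells also overlapped those in state 0. The part of the mix of states in these folds was not tested. Cox6b2, a testis isoform of complex IV subunit 6B with few UMIs, was higher (2.26). Of the 19 calls, 5 held with each library left out in turn.

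**Figure D3:**
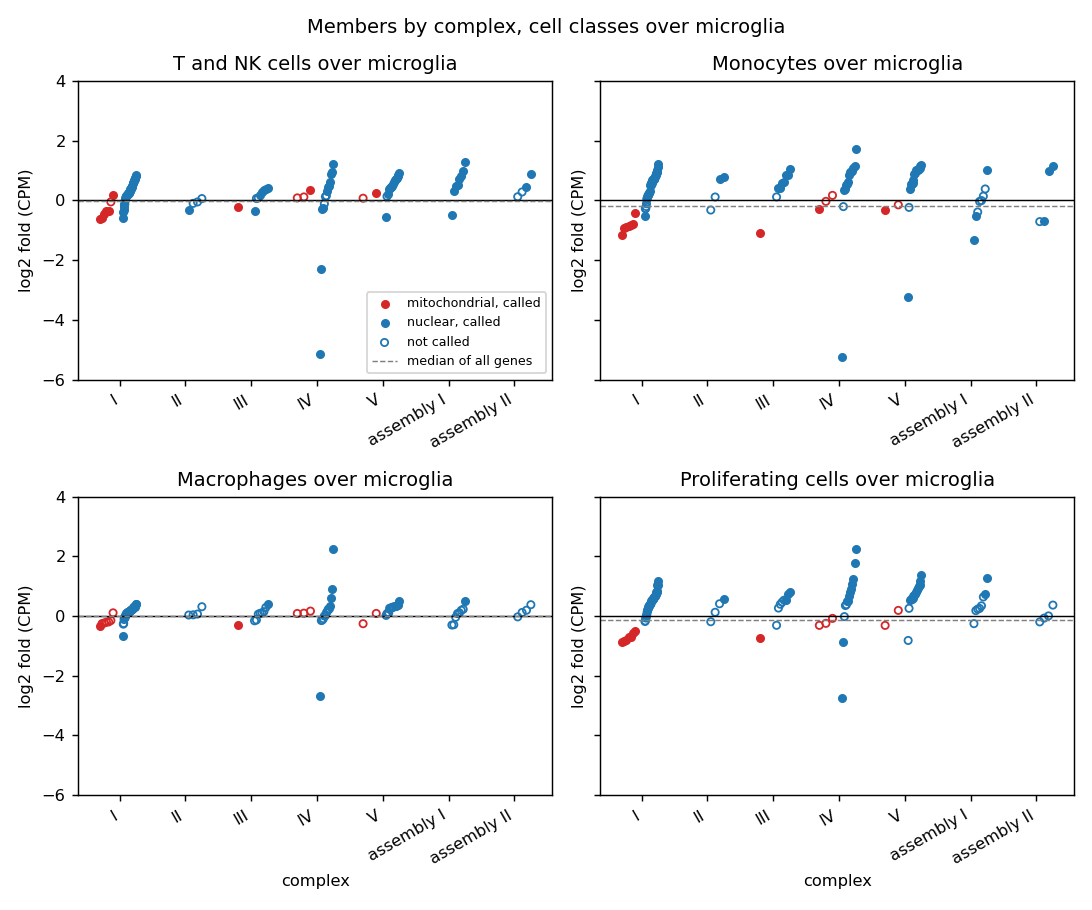
Fitted log2 fold (CPM) of each member tested in 4 cell classes over microglia, by complex; each point is 1 gene (red mitochondrial, blue nuclear, filled where the adjusted p was under 0.05) and the dashed line is the median of all genes. Nuclear members lie mostly above 0 and mitochondrial members below 0 in monocytes and proliferating cells, and the lowest point in complex IV of each panel is Cox6a2.

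Cox6a2 and Cox5a ran in different orders across the 9 sets. In UPM, Cox6a2 was at 366 ± 98.4 in state 5, 247 ± 102 in state 3, 200.7 ± 103 in state 4, 69.9 ± 29.1 in state 2, 48.9 ± 11.5 in state 0, 33.2 ± 10.5 in proliferating cells, 32.9 ± 22.3 in macrophages, 5.57 ± 2.71 in T and NK cells and 4.61 ± 6.29 in monocytes (mean ± SD, n = 4 libraries each). State 5 and state 0 did not overlap, while states 3, 4 and 5 overlapped each other, as did states 0 and 2. In state 6, which was not tested because AD 2 held 9 of its cells, Cox6a2 stood at 779.9, 445, 1089.8 and 778.4 UPM, and 3 of these 4 values were above the highest state 5 library, 491. Cox5a was highest in proliferating cells, at 587 ± 121, and in monocytes, at 478 ± 82.9, followed by T and NK cells at 350.2 ± 19.5, macrophages at 293 ± 61.5 and state 4 at 226 ± 21.5. It was lowest in state 0 and state 2, at 136 ± 3.27 and 136 ± 81.6. The other isoforms with a restricted tissue pattern were rare. Cox8b had 5 UMIs in the whole table, Ndufa4l2 47, Cox4i2 48, Cox7a1 126 and Cox6b2 292. Endothelial cells of ADAM 2, of which there were 21, held 25 of the UMIs of Ndufa4l2 and 11 of those of Cox4i2.

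**Figure D4:**
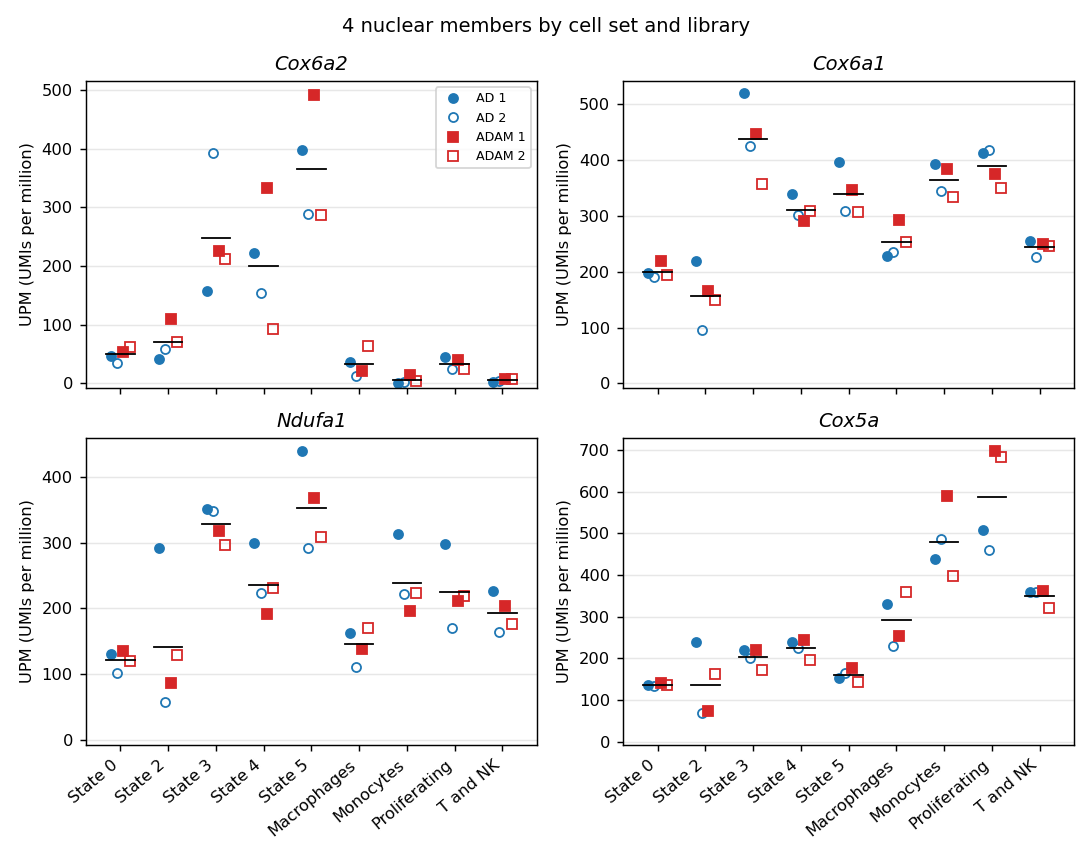
Level of 4 nuclear members in UPM (no TMM scaling) by cell set; each point is 1 library (circles AD, squares ADAM, filled replicate 1, open replicate 2) and the line is the mean of the 4 libraries. Cox6a2 is high in states 3, 4 and 5 and near 0 in monocytes and T and NK cells, while Cox5a is highest in proliferating cells and monocytes.

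The genotypes were compared in each set with 2 libraries against 2. No member was called by edgeR in microglia (104 tested, 3 others below the count filter), and none had an unadjusted p under 0.05. DESeq2 and limma-voom also called 0 members. Of all genes 0.0419% were called. The median log2 fold, ADAM over AD, was 0.15 for mitochondrial and 0.08 for nuclear members and 0.00 for all genes. A positive fold was found for 84 of 104 members, against 51.0% of all genes. These signs come from the same libraries and are not independent of each other. mt-Co3, of complex IV, stood at 6348 and 5220 CPM in AD and 6937 and 7114 CPM in ADAM, so that the groups did not overlap, though the 2 AD libraries were farther from each other than AD 1 was from ADAM 1 (log2 fold 0.28, SE 0.144, adjusted p = 0.9999).

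In the 9 other sets the result was the same by edgeR, DESeq2 and limma-voom, with 0 members called. The shares of all genes called were 0.101% in state 0, 0.0635% in state 2, 0.313% in state 3, 0.127% in state 4, 0.153% in state 5, 0.0154% in macrophages, 0.155% in monocytes, 0.0842% in proliferating cells and 0.241% in T and NK cells. Between 0 and 9 members per set had an unadjusted p under 0.05, with the highest number in state 0, where 4.22% of all genes did. No test was made on the summed shares. In state 0 the mitochondrial share was 2.90% and 2.76% in AD and 3.45% and 3.28% in ADAM, without overlap, and the nuclear share 1.33% and 1.34% against 1.42% and 1.39%, also without overlap. The medians there were 0.26 for mitochondrial and 0.11 for nuclear members, with 87 of 103 members positive, against 51.5% of all genes. Between genotypes in state 5 they were 0.01 and -0.01, and the mitochondrial shares, 3.31% and 2.75% against 3.22% and 3.17%, overlapped.

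Single members, chosen after their values were seen, came nearest to a call in states 4 and 0 and in T and NK cells. Ndufs6, an accessory subunit of complex I that overlaps Mrpl36 on the other strand, stood at 29.7 and 53.1 CPM in AD and 121 and 173 CPM in ADAM in state 4 (log2 fold 1.62, SE 0.354, adjusted p = 0.0915). These values rest on 5, 29, 49 and 33 UMIs. It was called without AD 2 (2.26, adjusted p = 0.025), without ADAM 1 (1.89, 0.00125) and with no filter on low counts (1.62, 0.013). In state 5 it stood at 102 and 86.3 CPM in AD and 84.6 and 86.2 CPM in ADAM, where both ADAM libraries lay below both AD libraries, 1 of them by little (log2 fold -0.13, adjusted p = 0.994). Cox6a2 stood at 44.7 and 34.1 CPM in AD and 53.8 and 64.4 CPM in ADAM in state 0 (log2 fold 0.62, SE 0.148, adjusted p = 0.335). It was called without ADAM 1 (0.76, adjusted p = 0.0193) and with no filter on low counts (0.61, adjusted p = 0.00139). In T and NK cells it stood at 2.46 and 4.14 against 7.94 and 7.87 CPM (adjusted p = 0.599), and 6 microglial markers there stood at 275 and 295 UPM in AD and 434 and 329 in ADAM. The part of microglial RNA in these Cox6a2 values was not tested. Over all microglia Cox6a2 overlapped, at 241 and 114 CPM against 228 and 197 CPM. mt-Nd5 in state 5 stood at 353 and 344 CPM in AD and 268 and 295 CPM in ADAM (log2 fold -0.31, adjusted p = 0.646).

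**Figure D5:**
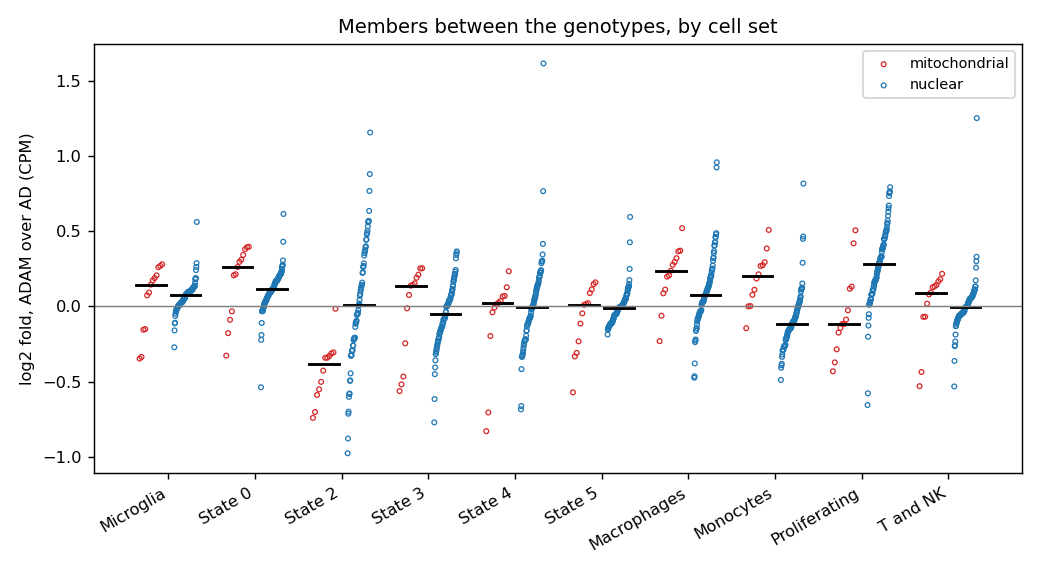
Fitted log2 fold, ADAM over AD (CPM), of every member tested in each cell set; each point is 1 gene (red mitochondrial, blue nuclear) and the black line is the median of the group. No member was called in any set; the medians lie at 0.26 and 0.11 in state 0 and near 0 in state 5, and the isolated high point in state 4 is Ndufs6.

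Whether the step from state 0 to state 5 differed between genotypes was tested as an interaction. No member of 103 was called by edgeR, against 1.02% of all genes, and 25 had an unadjusted p under 0.05, as did 8.88% of all genes. The interaction was negative for all 13 mitochondrial members and positive for 14 of 90 nuclear members and 48.5% of all genes. The medians were -0.24 and -0.15 against -0.01 for all genes. All members were read in the same libraries, so their signs are not independent observations. Uqcr10, a small complex III subunit named after its value was seen, had the lowest p. It went from 123 and 110 to 293 and 250 CPM in AD and from 129 and 137 to 243 and 243 CPM in ADAM (log2 difference -0.34, SE 0.11, adjusted p = 0.129). Cox6a2 was called only when ADAM 1 was left out (-0.97, adjusted p = 4.61e-08) and had -0.41 (adjusted p = 0.917) with all libraries.

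Of the members, 106 matched 1 GENCODE gene each. Sdhaf1, Cox6b1 and Cox7a1 lie within 20 Mb of Axl, and Ndufaf1 and Ndufaf5 within 20 Mb of Mertk, where DNA linked to a deleted gene can differ between the genotypes. None of the 5 was called, but few sets could test some of them. Of the 10 sets, Cox6b1 passed the count filter in 10, Sdhaf1 in 9, Ndufaf1 and Ndufaf5 in 4 each and Cox7a1 in 1.

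Other genes of the mitochondrion were followed by lists outside the prefixes. Of 77 tested mitochondrial ribosomal protein genes, which build the machine that translates the 13 mitochondrial messages, 52 were higher and 0 lower in state 5 over state 0 and 56 higher and 3 lower in T and NK cells over microglia (medians 0.34 and 0.46). Of 18 genes of mitochondrial DNA maintenance and transcription, 4 were higher and 6 lower in state 5 (median -0.04). Of 16 genes of the citric acid cycle and pyruvate dehydrogenase, 9 were higher and 2 lower (0.27). Of 38 electron carriers and assembly factors, 15 were higher and 3 lower (0.16). The shares of these lists called in state 5 were 67.5%, 55.6%, 68.8% and 47.4% in this order, against 58.4% of all genes, and in T and NK cells 76.6% of the ribosomal protein genes were called, against 76.9%. In state 5 the directions depended on the scaling. With total counts only, 19 of the ribosomal protein genes were higher and 14 lower (median 0.02), and the other lists had 2 higher and 10 lower (-0.36), 2 and 6 (-0.05), and 9 and 13 (-0.17). Of all 10687 genes 7714 were called under that scaling. In T and NK cells the counts of the ribosomal protein genes were the same under both scalings, which were nearly alike there. Between the genotypes no gene of these lists was called within any set. In the interaction of state and genotype 1 was called, which is 1.30% of the 77 ribosomal protein genes against 1.02% of all genes. It was Mrpl33 of the large mitochondrial ribosomal subunit. It went from 54.1 and 56.7 to 196 and 146 CPM in AD and from 66.7 and 70.4 to 133 and 132 CPM in ADAM (log2 difference -0.61, SE 0.119, adjusted p = 0.000298).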

How the data were processed

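The authors deposited raw counts of UMIs per gene and cell with their cell classes, microglia states, doublet marks and, in percent, each cell's mitochondrial UMIs. Cell Ranger 3.1.0, Seurat 3.2.1.9002 and the mm10 genome are named in the submitters' processing notes, which assign no steps. No source used here states the aligner settings, gene annotation, use of strand or filters on cells. The deposited percent equalled the share of counts on the 13 mitochondrial genes in all 15451 cells (tolerance 0.001 percentage points).

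Of these cells, 823 marked as doublets had no class and 216 microglia and T cell doublets had no state, and neither entered the comparisons. Library totals were 14963857, 29831947, 23190134 and 26212313 UMIs in AD 1, AD 2, ADAM 1 and ADAM 2. Counts were summed per library and set, for sets with at least 20 cells in every library. They were tested with edgeR 4.0.16 (TMM scaling, filterByExpr with a minimum count of 10, quasi-likelihood test) in R 4.3.3, with Benjamini-Hochberg adjustment over all genes tested and a threshold of 0.05. Class and state contrasts had library as a term. Standard errors were derived from the fold and its F statistic. DESeq2 1.42.0, limma-voom (limma 3.58.1), other scalings and filters, and each library left out were alternatives. The code was tested on simulated counts. Sums and figures used Python 3.11.15 with numpy 2.4.6, scipy 1.17.1 and pandas 2.3.3.

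Members and lists were chosen with earlier results of these data known. Genes named were the mitochondrial members, the 2 most abundant nuclear members per complex, paralogs with a tissue or hypoxia isoform, Atpif1 and, per class or state contrast, up to 3 nuclear members per direction with the largest called fold, averaging 5 or more in log2 CPM and moving in the same direction in every library. Others named were chosen after their values were seen. A gene in the table overlaps 26 of the nuclear members, 1 of them on the same strand.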

Additional observations from a re-analysis of the deposited data

How the results depend on the processing

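The 0 members called between the genotypes became 1 in state 0 (Cox6a2) and 1 in state 4 (Ndufs6) with no filter on low counts. With 1 library left out, they ranged from 0 to 1 in state 0, state 4 and macrophages, 0 to 3 in state 5 and 0 to 4 in proliferating cells. In the other sets they were 0, and in the interaction 0 to 1. A group left with 1 library was assumed to vary like the others. With the replicate block, 0 members were called in each of the 10 sets. Same-numbered libraries deviated together with correlations of -0.26 to 0.14 across genes, so the numbers were not taken as pairs.

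Members called in macrophages were 19, 12 with no filter, 26 with total counts only and 7 to 18 with 1 library left out. In proliferating cells they were 55, and 32 to 53 with 1 left out. In state 2 they were 56, 29 by DESeq2 and 15 to 56 with 1 left out. The causes were not tested.

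With ribosomal protein genes left out of the total, the microglial shares were 3.84% mitochondrial and 1.94% nuclear, against 3.17% and 1.604%. The folds of the share were then 1.31 and 1.64 for T and NK cells over microglia, against 1.01 and 1.26, and 1.44 for nuclear members in state 5 over state 0, against 1.37. As a mean over cells the microglial nuclear share was 1.53% and the nuclear fold in T and NK cells 1.32. Signs turned in 6 values for single genes. These were mt-Nd1 in state 5 (-0.28 with total counts only, -0.042 without AD 1), mt-Nd1 and mt-Atp6 in state 4 (-0.089 and -0.10 with total counts only), mt-Co1 in proliferating cells (0.10 with total counts only) and Cox6a2 between genotypes in microglia (-0.18 without AD 2, with 0.88 without AD 1 as the highest). Of the other values for single genes, 527 kept direction and side of the threshold, 22 fell below it and 7 passed it.

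Depth limits rare members: states 2, 3 and 4 hold few UMIs, and 14 to 26 members fell below the count filter between genotypes there.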

Other observations

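Itgax, an integrin gene known as a marker of activated microglia, lies 54778 bases from Cox6a2 (chr7:128129547-128150657, plus strand) and was chosen after its values were seen. It stood at 22.5, 18.1, 18.0 and 26.7 UPM in state 0 and at 728, 588, 547 and 530 in state 5, without overlap. Itgam, an integrin gene on the far side of Itgax from Cox6a2, stood at 640, 635, 583 and 618 UPM in state 0 and at 289, 273, 283 and 263 in state 5. Itgax and Itgam thus differed in direction between these states, and whether Cox6a2 shares regulation with a neighbour was not tested.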
